A study of Homo sapiens with 12 samples.

Results

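The genes described here are those of the thioredoxin and peroxiredoxin system: thioredoxin (TXN), its cytosolic reductase (TXNRD1), the thioredoxin-binding protein TXNIP, sulfiredoxin (SRXN1) and the peroxiredoxins PRDX1 to PRDX6. They form a list of gene names, with no threshold on any value, and were looked up by gene symbol among the 57773 Ensembl gene identifiers of the count files. The list was chosen with earlier results of these data known. Of the 10 listed genes, 9 were matched to an identifier. TXNIP, which binds and inhibits reduced thioredoxin, was not matched by symbol and was not analysed here.

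Thioredoxin is a small protein that reduces disulfides in other proteins and is returned to its reduced form by thioredoxin reductase, a selenoprotein that draws electrons from NADPH. Peroxiredoxins are abundant peroxidases that destroy hydrogen peroxide with a reactive cysteine, and most of them are then reduced by thioredoxin. When that cysteine is oxidised too far the enzyme is inactivated, and sulfiredoxin can repair it. Several genes of this system, TXNRD1 and SRXN1 among them, are known targets of the transcription factor NRF2, which is itself degraded by the proteasome.

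RNA was measured by stranded polyA sequencing in 12 libraries of T47D cells, an oestrogen receptor-positive breast cancer line, all made with a hairpin RNA that doxycycline switches on and that targets PSMD2, one of the proteins of the proteasome's 19S cap. The study compared 2 states of this line, control and Lo19S, with and without bortezomib, an inhibitor of the proteasome's catalytic core. Cells of the Lo19S state had received 0.2 µg/ml doxycycline for 3 days and then none for 24 h, whereas control cells received none. The 4 groups of 3 libraries were thus control cells with the solvent DMSO, Lo19S cells with DMSO, control cells with 20 nM bortezomib and Lo19S cells with 20 nM bortezomib, each treated for 16 h. Both Lo19S groups received doxycycline and neither control group did, so the hairpin and the doxycycline cannot be told apart. No label states whether replicate libraries derive from separate cultures, and the p-values then measure only the spread between these libraries.

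Library totals ran from 7376597 to 15003480 counts. Levels are CPM, read counts brought to a common library size by the trimmed-mean method (TMM), and a gene was called when its adjusted p from edgeR's quasi-likelihood test, Benjamini-Hochberg adjusted over the 14714 genes tested, was below 0.05. PSMD2, the hairpin's target, stood at 406 ± 12.8 CPM (SD, n = 3) in control and 185 ± 3.34 CPM in Lo19S cells under DMSO, and at 1516 ± 10.5 and 542 ± 3.29 CPM under bortezomib, so every group followed its label. The 7 markers of luminal epithelium, the lineage of T47D, were all detected, with a summed level of 5510 to 5640 CPM in control DMSO, 4890 to 4990 in Lo19S DMSO, 3810 to 3890 in control bortezomib and 3690 to 3850 CPM in Lo19S bortezomib libraries. Within this sum KRT18, EPCAM and CDH1 were higher in every bortezomib library than in every DMSO library, and KRT8, KRT19, ESR1 and GATA3 were lower. Of 6 fibroblast markers, 2 averaged over 1 CPM, COL1A1 and LUM, and the summed level of the 6 was 26 to 31.4 CPM in control DMSO, 33.0 to 33.8 in Lo19S DMSO, 63.5 to 69.7 in control bortezomib and 44.1 to 47.1 in Lo19S bortezomib libraries; the part of these luminal and fibroblast shifts in the results was not tested. The leukocyte markers summed to at most 2.33 CPM, with CD3E at 0 in every library, and the endothelial markers to at most 0.372 CPM. Replicate 3 of the control DMSO group was unlike its fellows: its counts differed from those of the other 2 by 3.64 and 3.99 times the sampling variance, against 1.15 to 1.90 in the other pairs of one group. Results that changed without it are given with their value without it. In bulk RNA a lower level can mean fewer cells of a kind or less RNA per cell, and these cannot be told apart.

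In Lo19S cells under DMSO, thioredoxin, its reductase and 4 of the 6 peroxiredoxins were higher than in control cells, by at most 1.53-fold. The 6 genes were TXN, TXNRD1, PRDX1, PRDX2, PRDX5 and PRDX6. SRXN1, PRDX3 and PRDX4 were not called. Among all genes tested in this comparison 24.7% were called, 11.7% as higher in Lo19S cells. The median log2 fold change was 0.32 over the 9 members and -0.0043 over all genes tested.

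TXN (ENSG00000136810) had levels of 265, 271 and 282 CPM in control libraries, against 339, 344 and 353 CPM in Lo19S libraries. Every Lo19S library was above every control library, and the log2 fold change was 0.34 (SE 0.0378, adjusted p = 4.83e-10), or 1.27-fold. TXNRD1 (ENSG00000198431), the flavoenzyme that keeps cytosolic thioredoxin reduced, was at 308, 309 and 290 CPM in control and 398, 386 and 389 CPM in Lo19S cells. These groups did not overlap either, with a log2 fold change of 0.37 (SE 0.0338, adjusted p = 1.89e-12).

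The counts of SRXN1 (ENSG00000271303), the gene of sulfiredoxin, were low, at 12, 5 and 9 reads in the control and 11, 12 and 11 reads in the Lo19S libraries. On the CPM scale the groups overlapped, at 0.907, 0.466 and 0.836 against 0.877, 1.03 and 1.18. The log2 fold change of 0.43 had an SE of 0.391 and an adjusted p of 0.469, so a change of this size was not detectable at this depth. GENCODE places 85.0% of the exon bases of SRXN1, 2292 bases, inside another gene on the same strand, AL121758.1, which had 0 counts in every library. The assignment of reads in shared bases is not stated in the sources, and the level of SRXN1 is therefore uncertain.

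PRDX1 (ENSG00000117450), the main cytosolic peroxiredoxin, showed the largest difference of the 6 peroxiredoxins: 525, 532 and 508 CPM in control against 803, 787 and 801 CPM in Lo19S cells. The groups were far apart for their spread, with a log2 fold change of 0.61 (SE 0.0334, adjusted p = 3.02e-20). PRDX5 (ENSG00000126432), which is found in mitochondria, peroxisomes and cytosol, was at 184, 177 and 198 CPM in control and 237, 229 and 231 CPM in Lo19S cells. It rose by 0.32 on the log2 scale (SE 0.0402, adjusted p = 1.32e-08), again without overlap of the groups.

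PRDX6 (ENSG00000117592), which uses glutathione in place of thioredoxin, had a smaller difference, from 323, 317 and 308 CPM to 355, 351 and 356 CPM. Its log2 fold change was 0.16 (SE 0.0338, adjusted p = 0.000205) and its groups did not overlap. PRDX2 (ENSG00000167815), the other abundant cytosolic peroxiredoxin, was at 146, 144 and 171 CPM in control and 174, 169 and 169 CPM in Lo19S cells. The third control library lay among the Lo19S libraries, and the log2 fold change was 0.16 (SE 0.0521, adjusted p = 0.0264). Without control DMSO replicate 3 the value was 0.24 (adjusted p = 5.15e-08). The call of PRDX2 was lost with DESeq2's Wald test (adjusted p = 0.0677) and without each of the other 5 DMSO libraries in turn (adjusted p = 0.0553 to 0.166).

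PRDX3 (ENSG00000165672), the peroxiredoxin of the mitochondrial matrix, was at 156, 166 and 146 CPM in control and 151, 146 and 137 CPM in Lo19S cells, which overlap. Its log2 fold change was -0.11 (SE 0.0446, adjusted p = 0.0764), and single libraries moved it in both directions. It was -0.15 (adjusted p = 0.000802) without control DMSO replicate 3 and -0.14 (adjusted p = 0.0474) without Lo19S DMSO replicate 1, but -0.066 (adjusted p = 0.366) without control DMSO replicate 2 and -0.070 (adjusted p = 0.352) without Lo19S DMSO replicate 3. PRDX4 (ENSG00000123131), the secretory-pathway member found in the endoplasmic reticulum (ER), was at 126, 124 and 124 CPM against 120, 117 and 123 CPM. The control libraries were all above the Lo19S libraries, but the log2 fold change of -0.05 (SE 0.0436) was not called (adjusted p = 0.401).

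**Figure D1:**
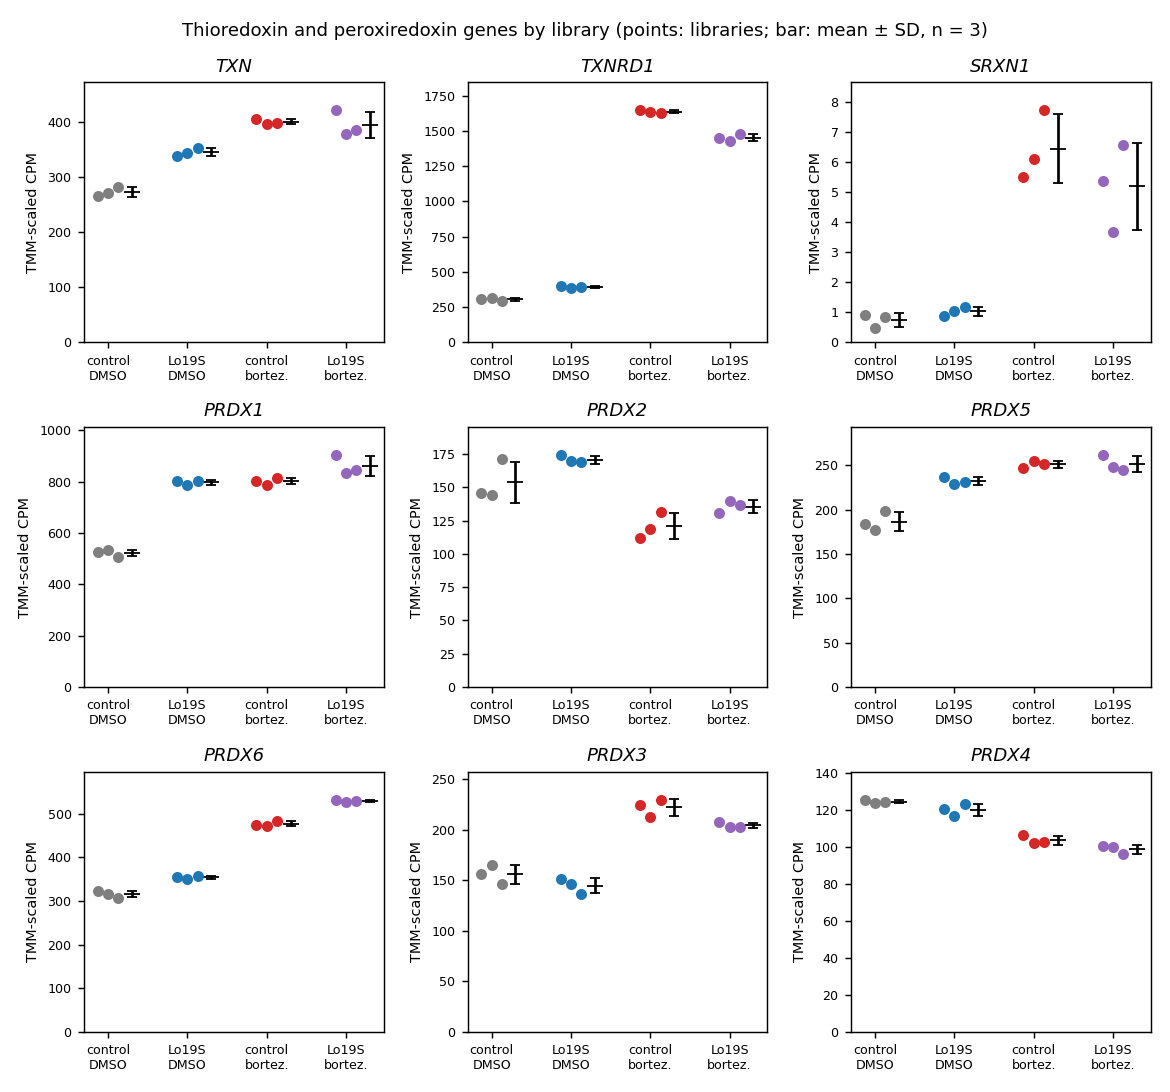
TMM-scaled CPM (vertical axes, from 0) of the 9 genes in each of the 12 libraries, by group; points are libraries and bars the mean ± SD of 3. TXNRD1 and SRXN1 stand far higher in both bortezomib groups than in both DMSO groups, and PRDX1 is higher in Lo19S cells under DMSO, at 787 to 803 CPM, than in control cells under DMSO, at 508 to 532 CPM.

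Bortezomib was accompanied in control cells by a 5.42-fold rise of TXNRD1 and an 8.51-fold rise of SRXN1, with rises of 1.35-fold to 1.54-fold in TXN, PRDX1, PRDX3, PRDX5 and PRDX6. PRDX2 and PRDX4 fell. All 9 members were called, 7 as higher and 2 as lower, but 81.4% of all genes tested were called in this comparison, 39.2% as higher and 42.2% as lower. SRXN1 passed the filter on low counts through the groups where it was high: it reached the minimum of 1.03 CPM in 0 of the 3 control DMSO libraries and in all 3 of either bortezomib group. The median log2 fold change of the 9 members was 0.56, against -0.043 for all genes tested.

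The promoters of TXNRD1 and SRXN1, the genes with the largest rises, are shown because NRF2 acts through the antioxidant response element (ARE). The windows cover the 250 bases before each start in RefSeq's annotation of GRCh38.p14, a build used for sequence only. The first 2 windows begin upstream of alternative starts of TXNRD1, at chr12:104215529-104215778 and chr12:104286782-104287031 on the plus strand, and the third belongs to SRXN1, at chr20:653201-653450 on the minus strand. All are written 5′ to 3′ along the gene's strand, and capitals mark a match to the core of the ARE, TGACNNNGC, on either strand.

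TXNRD1 start 1: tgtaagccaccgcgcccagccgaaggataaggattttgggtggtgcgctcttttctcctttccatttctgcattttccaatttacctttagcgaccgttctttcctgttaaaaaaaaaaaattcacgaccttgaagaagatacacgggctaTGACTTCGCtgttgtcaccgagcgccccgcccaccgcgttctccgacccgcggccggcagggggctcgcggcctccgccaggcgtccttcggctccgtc
TXNRD1 start 2: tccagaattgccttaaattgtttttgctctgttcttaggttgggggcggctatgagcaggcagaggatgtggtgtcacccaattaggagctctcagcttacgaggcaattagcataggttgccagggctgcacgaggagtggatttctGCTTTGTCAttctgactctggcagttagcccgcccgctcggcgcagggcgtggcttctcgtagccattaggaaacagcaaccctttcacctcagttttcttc
SRXN1: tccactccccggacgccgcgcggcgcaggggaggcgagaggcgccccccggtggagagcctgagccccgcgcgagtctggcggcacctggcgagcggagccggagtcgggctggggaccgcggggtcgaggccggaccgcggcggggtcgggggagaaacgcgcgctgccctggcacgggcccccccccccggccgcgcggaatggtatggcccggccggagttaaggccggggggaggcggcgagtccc

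The match in the window of the first TXNRD1 start, TGACTTCGC, lies 99 to 91 bases before the start on the gene's own strand. In the window of the second start the capitals read TGACAAAGC on the opposite strand and lie 102 to 94 bases before it. The table held 11 starts for 8 of the 10 listed genes, all but PRDX1 and PRDX6, and the ARE core was found only in these 2 windows of TXNRD1. Among all 35116 windows of this length 10.9% held the core. A heat shock element, spelled as GAA, TTC and GAA with 2 bases between each, and searched on both strands, was found in 0 of the 11 windows and in 0.441% of all windows. These matches describe letters in a window and say nothing about binding.

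TXNRD1 under bortezomib was at 1649, 1634 and 1632 CPM in control cells, from 290 to 309 CPM under DMSO. The log2 fold change was 2.44 (SE 0.0338, adjusted p = 9.47e-47), far beyond the spread of the libraries. SRXN1 rose from 5 to 12 reads per library to 45, 55 and 65 reads, or 5.50, 6.13 and 7.74 CPM, with a log2 fold change of 3.09 (SE 0.268, adjusted p = 1.13e-14). Both genes had no overlap between treatments, and the larger SE of SRXN1 goes with its low counts.

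TXN reached 405, 397 and 399 CPM, a log2 fold change of 0.55 (SE 0.0380, adjusted p = 2.95e-18). PRDX1 reached 803, 789 and 814 CPM, a log2 fold change of 0.62 (SE 0.0337, adjusted p = 4.22e-22). PRDX6 rose to 474, 473 and 484 CPM, by 0.59 on the log2 scale (adjusted p = 2.65e-21). These 3 cytosolic proteins' genes thus had like fold changes, all without overlap of the groups. PRDX3 stood at 225, 213 and 230 CPM, a rise of 0.51 (adjusted p = 8.29e-15). PRDX5 stood at 247, 255 and 252 CPM, a rise of 0.43 (adjusted p = 1.91e-13).

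The 2 members that fell encode a cytosolic and an ER peroxiredoxin. PRDX2 went to 112, 119 and 132 CPM, below all DMSO libraries, and fell by 0.35 on the log2 scale (SE 0.0556, adjusted p = 1e-06). PRDX4 went to 107, 102 and 103 CPM and fell by 0.26 (SE 0.0458, adjusted p = 1.1e-06).

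In Lo19S cells the same 9 genes were called under bortezomib in the same directions, 7 higher and 2 lower, where 77.5% of all genes tested were called, 37.8% as higher and 39.7% as lower. TXNRD1 went from 398, 386 and 389 CPM to 1452, 1433 and 1477 CPM, a log2 fold change of 1.90 (SE 0.0330, adjusted p = 3.68e-42). SRXN1 went from 0.877, 1.03 and 1.18 CPM to 5.38, 3.66 and 6.56 CPM, a log2 fold change of 2.42 (SE 0.257, adjusted p = 8.24e-12). Both rises were several-fold and without overlap.

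For TXN, PRDX1 and PRDX5 the rise in Lo19S cells was small. TXN reached 422, 379 and 385 CPM, a log2 fold change of 0.19 (SE 0.0375, adjusted p = 9.5e-06). PRDX1 reached 903, 833 and 846 CPM, a log2 fold change of 0.11 (SE 0.0331, adjusted p = 0.00231). PRDX5 reached 262, 248 and 245 CPM, a log2 fold change of 0.11 (SE 0.0400, adjusted p = 0.0105). All libraries with bortezomib were above all libraries with DMSO, by narrow gaps. PRDX5 was no longer called without Lo19S bortezomib replicate 1 (adjusted p = 0.067), and neither PRDX1 nor PRDX5 was called without the filter on low counts (adjusted p = 0.224 and 0.327).

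PRDX6 and PRDX3 rose in Lo19S cells by 0.58 and 0.50 on the log2 scale (adjusted p = 6.24e-21 and 4.15e-14). PRDX6 stood at 531, 526 and 528 CPM and PRDX3 at 208, 203 and 203 CPM. PRDX2 fell by 0.34 to 131, 139 and 137 CPM (adjusted p = 1.13e-06), and PRDX4 fell by 0.28 to 101, 100 and 96.0 CPM (adjusted p = 3.37e-07). Their fold changes were close to those in control cells.

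**Figure D2:**
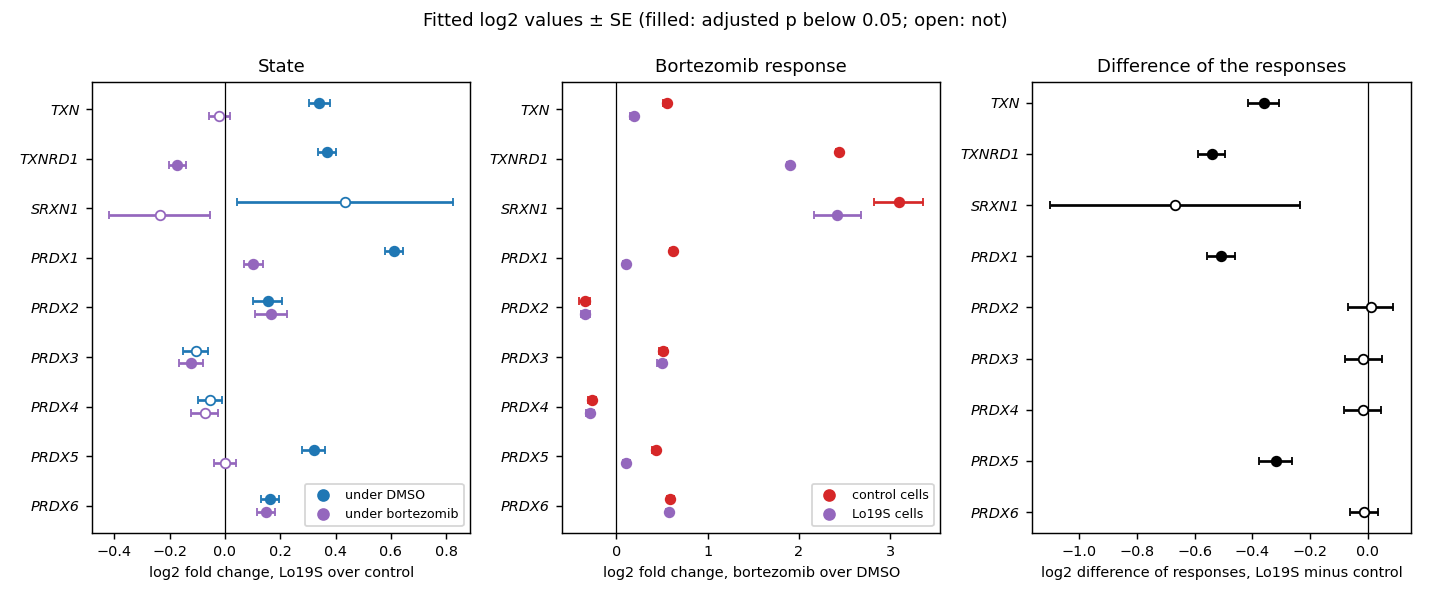
Fitted log2 values ± SE of the 9 genes for Lo19S over control cells under each treatment (left), bortezomib over DMSO in each state (middle) and the difference of the 2 responses (right); filled points had an adjusted p below 0.05. TXN, TXNRD1, PRDX1 and PRDX5 lie at -0.32 to -0.54 in the right panel, while PRDX2, PRDX3, PRDX4 and PRDX6 lie within 0.02 of 0.

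The sign of the small bortezomib values depended on how libraries were scaled. Scaling by library totals in place of TMM shifted the median log2 fold change of all genes by -0.381 in control and by -0.288 in Lo19S cells, and the share of calls that were higher went from 48.1% to 30.5% and from 48.7% to 32.0%. In control cells PRDX5 then lost its call (0.050, adjusted p = 0.252), and the other 8 members kept their direction and call. In Lo19S cells TXN, PRDX1 and PRDX5 turned negative, at -0.095, -0.18 and -0.18, which was still above the median of all genes of -0.31 under that scaling. TXNRD1 stayed at 2.06 and 1.61 and SRXN1 at 2.71 and 2.13 in control and Lo19S cells. PRDX3 and PRDX6 stayed positive and PRDX2 and PRDX4 negative in both states.

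**Figure D3:**
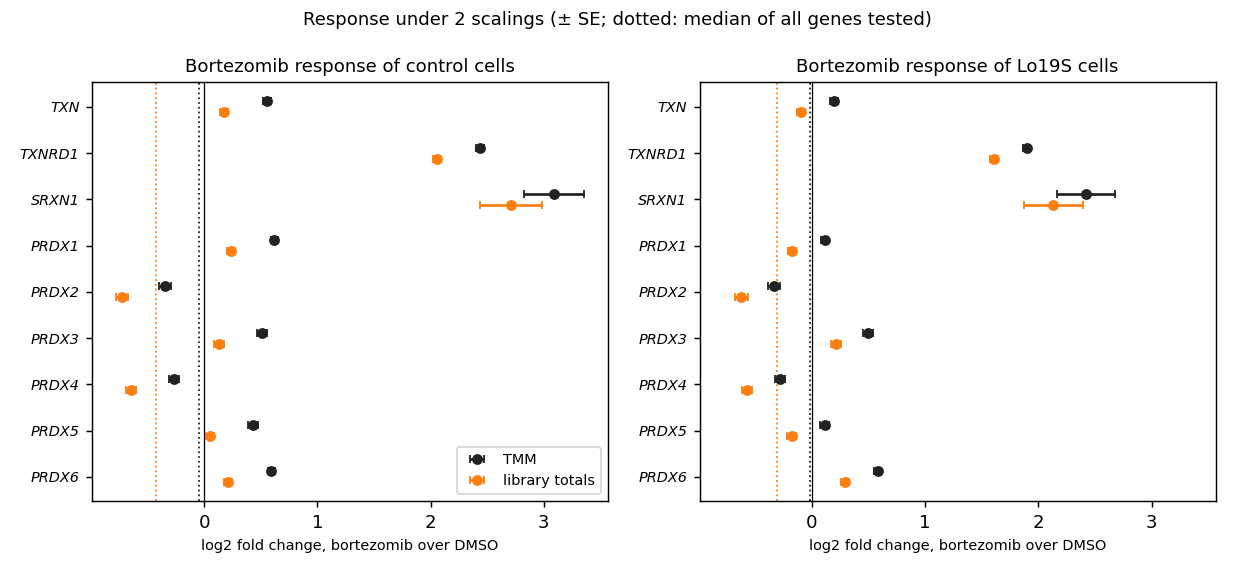
Log2 fold change of bortezomib over DMSO (± SE) for the 9 genes in control cells (left) and Lo19S cells (right) under TMM scaling and under scaling by library totals; dotted lines mark the median of all genes tested. Every gene moves left with library totals, by the shift of the median of -0.381 or -0.288, and TXN, PRDX1 and PRDX5 cross 0 in Lo19S cells.

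The difference of the 2 bortezomib responses, tested as Lo19S minus control, was called for 4 of the 9 members, all as smaller in Lo19S cells: TXNRD1, PRDX1, TXN and PRDX5. Of all genes tested 27.8% were called, 14.4% as higher and 13.4% as lower. TXNRD1 differed by -0.54 on the log2 scale (SE 0.0460, adjusted p = 2.33e-13), PRDX1 by -0.51 (SE 0.0472, adjusted p = 3.48e-12), TXN by -0.36 (SE 0.0533, adjusted p = 5.7e-07) and PRDX5 by -0.32 (SE 0.0571, adjusted p = 2e-05). The DMSO libraries also enter the comparison of the states under DMSO, in which these 4 genes had log2 fold changes of 0.37, 0.61, 0.34 and 0.32.

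The other 5 members were not called in this test. PRDX2, PRDX3, PRDX4 and PRDX6 had differences of 0.01, -0.02, -0.02 and -0.01, with SEs of 0.0776, 0.0625, 0.0649 and 0.0475. SRXN1 had a value of -0.67 with an SE of 0.433 (adjusted p = 0.268), so its difference was not resolved at this depth. Under scaling by library totals the 4 calls remained, at -0.45 for TXNRD1, -0.42 for PRDX1, -0.27 for TXN and -0.23 for PRDX5, while the share of all calls that were higher went from 51.9% to 72.6%. Without control DMSO replicate 3 they were -0.51, -0.49, -0.38 and -0.36.

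Between the states under bortezomib 5 members were called, all with log2 fold changes between -0.17 and 0.17. TXNRD1 was lower in Lo19S cells, 1433 to 1477 against 1632 to 1649 CPM, with a log2 fold change of -0.17 (SE 0.0312, adjusted p = 1.08e-05). TXN had a log2 fold change of -0.02 (SE 0.0377, adjusted p = 0.71) and PRDX5 of 0.0010 (SE 0.0406, adjusted p = 0.989), with overlapping groups. PRDX6, PRDX2 and PRDX1 were higher in Lo19S cells, by 0.15, 0.17 and 0.10 (adjusted p = 0.000261, 0.0192 and 0.0101), and PRDX3 was lower, by -0.12 (adjusted p = 0.0212). SRXN1 (-0.24, adjusted p = 0.313) and PRDX4 (-0.07, adjusted p = 0.222) were not called.

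The 5 calls, 3 higher and 2 lower, stood against 43.1% of all genes tested, 22% as higher and 21.2% as lower, and the median of the members was -0.02. The count was 3 without control bortezomib replicate 1 or 2 or without Lo19S bortezomib replicate 2 or 3. Under library totals, which shifted the median of all genes by 0.111 and the share of calls that were higher from 50.9% to 72.3%, TXN was called as higher in Lo19S cells (0.091, adjusted p = 0.0428), PRDX5 as well (0.11, adjusted p = 0.0203), and TXNRD1 and PRDX3 lost their calls (adjusted p = 0.102 and 0.861).

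With TMM scaling the reads on the 6 peroxiredoxin genes summed to 1458 ± 2.5 CPM (SD, n = 3) in control DMSO, 1819 ± 20.7 in Lo19S DMSO, 1977 ± 32.4 in control bortezomib and 2080 ± 47.7 CPM in Lo19S bortezomib libraries. The order of the groups depended on the scaling: by library totals, an alternative added after seeing the data, the sums were 1627 ± 0.669, 2055 ± 19.0, 1694 ± 29.2 and 1925 ± 37.5 CPM, with Lo19S DMSO highest and above Lo19S bortezomib libraries. Control DMSO libraries were lowest under both scalings. The share of each gene in the sum does not depend on the scaling. PRDX1 held 35.8% ± 0.809 of this sum in control DMSO and 43.8% ± 0.229 in Lo19S DMSO libraries, and 40.6% ± 0.213 and 41.4% ± 0.853 under bortezomib. PRDX6 held 21.7% ± 0.500 and 19.5% ± 0.169 under DMSO and 24.1% ± 0.0996 and 25.4% ± 0.465 under bortezomib. The share of PRDX1 was thus highest in Lo19S cells without the drug and that of PRDX6 in Lo19S cells with it. PRDX2 went from 10.5% ± 1.06 in control DMSO to 6.11% ± 0.416 in control bortezomib libraries, and PRDX4 from 8.55% ± 0.0451 to 5.25% ± 0.161. PRDX5 held 12.1% to 12.8% in every group. These shares are of reads and are not corrected for gene length.

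**Figure D4:**
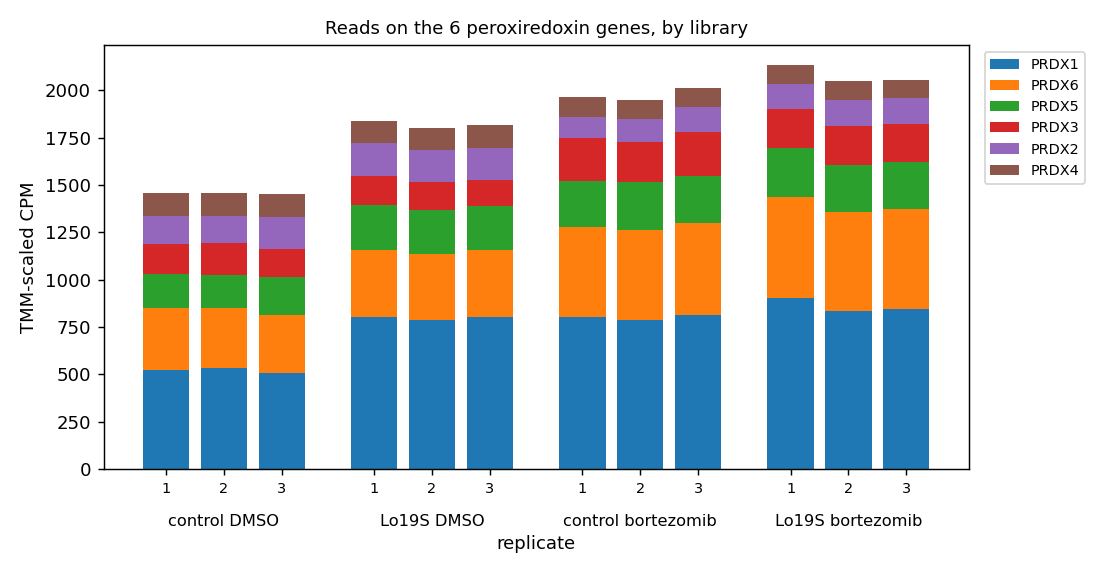
Stacked bars of the TMM-scaled CPM of PRDX1 to PRDX6 in each of the 12 libraries, by group and replicate, from 0. With this scaling the bars average 1458 CPM in control DMSO and 2080 CPM in Lo19S bortezomib libraries, whereas by library totals Lo19S DMSO libraries are highest, at 2055 CPM. The PRDX1 segment is a larger part of the bar in Lo19S DMSO than in control DMSO libraries.

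Levels of different genes were compared per kilobase of exon, as CPM divided by exon length in GENCODE release 29. That length merges the exons of all annotated transcripts, from 893 bases in PRDX5 to 6708 in TXNRD1. It can exceed the length of the transcript expressed, and a gene's place in the order can then be too low. In control cells under DMSO the order was PRDX1 (343 ± 8.29 CPM per kb), TXN (239 ± 7.53), PRDX5 (209 ± 12.3), PRDX6 (134 ± 3.29), PRDX2 (73.4 ± 7.25), PRDX4 (65.5 ± 0.381), PRDX3 (45.7 ± 2.83) and TXNRD1 (45.1 ± 1.63). PRDX3 and TXNRD1 differed by less than their SDs, and PRDX2 and PRDX4 by little more than the SD of PRDX2. Under bortezomib TXNRD1 stood at 244 ± 1.39 CPM per kb in control cells, above PRDX6 at 202 ± 2.60 and below PRDX5 at 281 ± 4.58. SRXN1 was not placed in this order because of its shared exon bases.

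Close copies of the members had few counts: pseudogenes of TXN, 7 in number, together had 0.597% of the counts of TXN. Those of PRDX1 to PRDX5 had at most 0.261% of their parent's. The handling of multi-mapping reads is not given, so these counts cannot show whether shared reads were lost from both copy and parent. PRDX1 shares 24.9% of its exon bases with MMACHC on the opposite strand, which had 50 to 212 counts per library. Reads in those bases are uncertain, since no source used states whether counting took account of strand.

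The mitochondrial counterparts of TXN and TXNRD1, chosen for mention after their values were seen, went the other way under bortezomib. TXN2, mitochondrial thioredoxin, fell by 0.84 on the log2 scale in control cells (SE 0.0585, adjusted p = 6.6e-18) and by 0.75 in Lo19S cells (adjusted p = 6.54e-17). TXNRD2, its reductase, fell by 1.16 (SE 0.0874, adjusted p = 1.03e-16) and by 0.95 (adjusted p = 2.01e-15). Under DMSO both were higher in Lo19S cells, by 0.15 and 0.32 (adjusted p = 0.0254 and 0.000412). Falls under bortezomib were not limited to this pair: TXNRD3 was at -0.93 in control and -0.97 in Lo19S cells. PRDX3, of the mitochondrial matrix, rose by 0.51 and 0.50.

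TXN2, TXNRD2 and TXNRD3 belong to a list of 13 other thioredoxin and glutaredoxin genes. This list and those that follow were chosen with earlier results of these data known. Their counts, set beside the shares of all genes, are thus descriptions without a test. In control cells 5 of the 13 rose and 7 fell under bortezomib, with a median log2 fold change of -0.20, where 39.2% of all genes tested rose and 42.2% fell. The counts are thus near those of all genes. The called genes were led by GLRX3, an iron-sulfur cluster chaperone of the glutaredoxin family (1.53), and TXNDC17, a thioredoxin-like protein (-1.69). In Lo19S cells under DMSO 4 were higher and 2 lower, against 11.7% and 13% of all genes, with glutaredoxin GLRX at 1.06 (SE 0.153, adjusted p = 2.98e-07) and thioredoxin-like TXNL1 at 0.43. The difference of the responses was called for 2 as higher and 2 as lower, against 14.4% and 13.4% of all genes tested. Those called included GLRX (-0.79) and TXNDC17 (0.43).

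Of 7 genes of reductases that take electrons from thioredoxin, MSRB1, a methionine sulfoxide reductase, was higher in Lo19S cells under DMSO (0.66, adjusted p = 1.74e-10). RRM2 and RRM1, which encode subunits of ribonucleotide reductase, and MSRB3 were lower (-0.37, -0.32 and -0.33). The other 3 were not called, and of all genes tested 11.7% were higher and 13% lower. Under bortezomib in control cells 3 of the 7 rose and 2 fell, a split not far from the 39.2% and 42.2% of all genes, with MSRB1 at 1.5 and MSRB3 at -1.60. The list of TXNIP's relatives among the arrestins and of glucose-sensing factors had 2 of 7 genes higher in Lo19S cells under DMSO. They were ARRDC4 (0.52) and ARRDC3 (0.34), and 11.7% of all genes tested were higher. Bortezomib went with a rise of 4 and a fall of 2 of these 7 in control cells, against 39.2% and 42.2% of all genes. Their median was 0.19, and ARRDC4 reached 4.29 on the log2 scale, with a difference of the responses of -1.09.

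Of 8 genes of NADPH supply tested, 5 were higher in Lo19S cells under DMSO, against 11.7% of all genes tested. They were led by TALDO1, transaldolase (0.47, adjusted p = 3.42e-11), and IDH1, cytosolic isocitrate dehydrogenase (0.34). Bortezomib in control cells went with 4 rises and 4 falls, near the shares of all genes: the mitochondrial IDH2 and NNT fell by 2.0 and 1.79, and TALDO1 rose by 1.22. Of 7 genes of selenoprotein synthesis, on which thioredoxin reductase depends, 3 rose and 3 fell in control cells, again near those shares, with SEPHS2 at 1.48 and EEFSEC at -1.20. Of 9 genes of thiol oxidation in the ER, 7 rose and 1 fell under bortezomib in control cells. Of all genes tested 39.2% rose and 42.2% fell. The called genes of this list were led by the oxidases ERO1B (1.62) and ERO1A (1.39). The median of these 9 was 0.86, against -0.043 for all genes tested. Between the states under DMSO 4 of the 9 were lower in Lo19S cells, against 13% of all genes tested. PDIA3 was at -0.22 and PDIA6 at -0.21. Of 5 other peroxide and superoxide enzymes listed, 3 were tested, since SOD2 was not matched and GPX1 was not tested. Of these 3, 1 rose and 2 fell under bortezomib in control cells, where 81.4% of all genes tested were called. SOD1 rose by 2.21, GPX4 fell by 1.25 and CAT, catalase, fell by 0.40.

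NRF2 is held low by KEAP1 and binds AREs together with small MAF proteins. All 7 listed factors of the pathway, KEAP1 among them, rose under bortezomib in both states. Of all genes tested 39.2% rose in control and 37.8% in Lo19S cells. The median log2 fold change of the 7 was 2.12 in control and 1.54 in Lo19S cells. KEAP1 rose least, by 0.41 and 0.18, and NFE2L2, the gene of NRF2, rose by 1.2 and 1.0. Because KEAP1 holds NRF2 low, the count of factors that rose gives no direction for the pathway. MAFF and MAFG, which encode small MAF proteins, reached 5.54 and 3.76 in control cells. Between the states under DMSO 3 of the 7 factors were higher in Lo19S cells and 1 lower, against 11.7% and 13% of all genes. MAFG, BACH1 and KEAP1 were higher, at 0.50, 0.35 and 0.26, and MAFF was lower, at -0.59 (adjusted p = 0.0495). NFE2L2 was not called, at 0.051 (adjusted p = 0.541). Of 10 NRF2 targets outside the members, 9 rose and 1 fell in control cells, against 39.2% and 42.2% of all genes tested. Their median was 2.33, with the cystine transporter SLC7A11 at 4.82 and the ferritin light chain FTL at 4.31. Under DMSO 7 of the 10 were higher in Lo19S cells, against 11.7% of all genes tested. Among them were SLC7A11 (1.13, SE 0.0712, adjusted p = 1.07e-17) and the haem oxygenase HMOX1 (0.89, adjusted p = 3.89e-08). NQO1, GCLC and ABCC2 were not called, at 0.027, 0.10 and 0.026 (adjusted p = 0.647, 0.145 and 0.963). The difference of the responses was called lower for 5 and higher for 1 of the 10, with FTL at -1.45 and OSGIN1 at -0.91. For the 7 factors it was called lower for 5, with MAFG at -1.06 and BACH1 at -0.62, and higher for NFE2L1 (0.18). Of all genes tested 13.4% were called as lower and 14.4% as higher in this test.

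The genes whose levels most resembled those of a member over the 12 libraries were found by the root mean square difference of log2 CPM after each gene's mean was removed, among about 9530 genes. For TXNRD1 they were BACH1 (0.0626), VPS37A (0.0813) and TRPV3 (0.0895). For TXN they were TRMT112 (0.0540), PRDX5 (0.0645) and MAP2K2 (0.0660). For PRDX1 they were NORAD (0.0709), PSMB5 (0.0876) and ALDOA (0.0884), and for SRXN1, whose few counts make any likeness looser, ELL2 (0.264), TRPV3 (0.270) and ERRFI1 (0.274). TXN and PRDX5 thus had nearly the same profile over the 4 groups, and that likeness is a description without a test.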

How the data were processed

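The RNA of T47D cells was sequenced in 12 libraries. The authors deposited unnormalized counts, whole numbers of reads for each gene, with a separate file for every library. The submitters' processing notes name STAR 2.5.4b, featureCounts 1.6.1 and build GRCh37. Not given in the sources used here are the annotation release, the strand setting and the handling of multi-mapping reads. Groups were taken from the sample labels.

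Symbols were matched to the files' 57773 identifiers through GENCODE release 29 and a gene name table, which gave 51996 identifiers a symbol. After filterByExpr, 14714 genes remained. They were scaled with TMM and fitted with 1 coefficient per group, all 12 libraries together, with edgeR 4.0.16, using its quasi-likelihood test in robust form (limma 3.58.1, R 4.3.3). P-values of the 5 comparisons were adjusted with Benjamini-Hochberg over all genes tested. Each SE was derived from the log2 fold change and the F statistic and is approximate. The median SE under DMSO was 0.0838 over all genes tested, against 0.0334 to 0.0521 for the members other than SRXN1 (0.391). A change larger than its SE was not always called: PRDX3 at -0.11 (SE 0.0446) was not. Alternatives were DESeq2's size factors, library totals, the Wald test of DESeq2 1.42.0, no filter, a replicate block, only the groups compared, and each library left out.

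The members and the 9 pathway lists (74 genes, 73 matched) were chosen with earlier results of these data known. All members were described. From each list up to 2 called genes with the largest absolute log2 fold change in a comparison were named, some with their values in other comparisons. TXN2, TXNRD2, RRM1 and MSRB3 under DMSO, and TALDO1 and CAT under bortezomib, fall outside this rule and were chosen after their values were seen. The same holds for KEAP1, NFE2L2 and TXNRD3 under bortezomib and NFE2L1 in the difference of the responses. It also holds for KEAP1, BACH1, NFE2L2, NQO1, GCLC and ABCC2 under DMSO.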

Additional observations from a re-analysis of the deposited data

Results flagged for a closer look

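The bortezomib response differed between the states by the test of the difference itself for 4 genes. Of all genes tested 27.8% were called in this test, 13.4% as lower. The DMSO libraries also enter the comparison of the states under DMSO, where these 4 genes were higher in Lo19S cells. For TXN the response of Lo19S cells minus that of control cells was -0.36 on the log2 scale. For TXNRD1 it was -0.54. For PRDX1 the value was -0.51, and for PRDX5 it was -0.32. The adjusted p of each from edgeR is given above, and each gene's own response was called in both states with TMM scaling.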

How the results depend on the processing

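Over the alternatives tried, 770 values for single members kept their side of the threshold, 23 lost a call and 4 gained one. Another 4 changed sign with a call before or after. A change of sign between values that were both not called was counted among the 770. Scaling by library totals gave all 4 reversals: TXN, PRDX1 and PRDX5 under bortezomib in Lo19S cells (-0.095, -0.18 and -0.18) and TXN between the states under bortezomib (0.091). With 1 library left out at a time, the number of members called ran from 5 to 7 between the states under DMSO, from 9 to 9 and from 8 to 9 for bortezomib in control and Lo19S cells, from 3 to 5 between the states under bortezomib, and from 4 to 4 for the difference of the responses. The number of all genes called ran from 2840 to 4603, from 11659 to 12124, from 10872 to 11828, from 5368 to 7080 and from 3408 to 4981. Replicate numbers paired the samples weakly if at all. The deviations of same-numbered libraries correlated at -0.0722 to 0.0256 over 18 pairs, of which 9 were highest with their own number. Within a state, every DMSO library was highest with the bortezomib library of its own number. Those correlations were 0.00648 to 0.0241 in control and 0.00826 to 0.0256 in Lo19S cells, so pairing by number within a state was not settled. With a replicate block the members called were 6, 9, 9, 5 and 4, as without it, and the genes called 3445, 11922, 11349, 6196 and 3889. Between the states under bortezomib, calls on small values were lost. PRDX3 lost its call with DESeq2 (adjusted p = 0.0515) and PRDX1 without Lo19S bortezomib replicate 1 (0.069, adjusted p = 0.109). Only 3 members were called, against 5 with all libraries, without control bortezomib replicate 1 or 2 or Lo19S bortezomib replicate 2 or 3. The cause was not tested. Counts of SRXN1 limit what can be said of it.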
